A study of Mus musculus with 6 samples.

Results

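The cytosolic ribosome is built from 1 large and 1 small subunit, and these are made of ribosomal RNA and of proteins whose genes are named Rpl (large subunit) and Rps (small subunit). The genes described here are the protein-coding genes of GENCODE M21, a mouse gene annotation, whose symbol is Rpl or Rps followed by a number, with a letter, an l or a copy number allowed after it, together with Rpsa, Rplp0, Rplp1 and Rplp2. Rps6k kinases and pseudogenes were left out. This gave 84 genes of the 54532 listed, 52 of the large and 32 of the small subunit. Pseudogenes made up 301 of the 403 listed genes whose symbol begins with Rpl or Rps. The RNA came from primary cardiomyocytes, heart muscle cells taken from newborn mice of 1 to 3 days of age that carry an engineered Rit1 locus. Rit1 is a small GTPase of the RAS family, and its M90I variant is expressed from this locus after Cre recombinase has acted. On day 3 of culture the cells received an adenovirus coding for GFP (AdGFP, 3 samples, labelled Rit1 +/+) or for GFP and Cre (AdCre, 3 samples, labelled Rit1 M90I/+), and RNA was taken on day 6 after infection. The comparison asks how expression of the Rit1 variant changes the transcripts of these cells. Cre and the variant came together, so their parts cannot be told apart. Hearts were digested together and plated at about 1 heart per well, and the labels call the samples biological replicates without naming an animal, so p-values measure the spread between these samples.

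Values are FPKM, fragment counts divided by exon length and by the depth of the library, and the reads recovered from them came to between 25.28 M and 26.55 M (M, megareads) per sample in AdGFP and between 25.98 M and 32.43 M in AdCre. Rit1 itself was at 7.66, 8.99 and 9.01 FPKM in AdGFP and 8.90, 9.10 and 9.58 FPKM in AdCre. These levels do not separate the alleles. The 10 cardiomyocyte markers were present and summed to 4730 to 7990 FPKM in AdGFP and 2630 to 4060 FPKM in AdCre, without overlap. All 10 were lower in AdCre, with a median log2 fold change of -0.80, and 0 passed the limma test described below (5 unadjusted p-values under 0.05), while 5 passed with the replicate number as a block, where 6.15% of all genes did. The fibroblast markers summed to 2970 to 5630 FPKM in AdGFP and 2740 to 4170 FPKM in AdCre, with 7 of 10 lower (with the block 1 passed as higher and 3 as lower). The endothelial markers summed to 94.1 to 146 and 138 to 205 FPKM, with 9 of 9 higher (4 passed with the block), and the macrophage markers to 49.3 to 268 and 87.6 to 335 FPKM, with 6 of 6 tested higher (2 passed with the block). The smooth muscle and epicardial markers had median log2 fold changes of 0.12 and -0.42 (0 and 1 passed with the block), and none of the 5 red blood cell markers reached the level to be tested. Without the block 0 genes of these lists passed. The part of these differences in the values below was not tested, and in bulk RNA fewer cells of a type and less RNA per cell cannot be told apart.

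Every working ribosome carries 1 copy of most of these proteins, and cells adjust their supply largely at the step of translation. Many ribosomal protein transcripts start with a C followed by a run of pyrimidines, the terminal oligopyrimidine or TOP motif, through which the kinase mTORC1 and the RNA-binding protein Larp1 control how they are translated. Such control changes ribosome loading with little change in the amount of the transcript, and RNA-seq of total cell RNA measures only the latter. Some of these proteins also act outside the ribosome. Rpl5 and Rpl11 bind the p53 regulator Mdm2 when ribosome assembly is disturbed, and Rps6 is the classical substrate of S6 kinase.

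RefSeq starts on GRCm38.p6 were matched for 64 of the 84 genes. A C at the annotated start followed by at least 4 pyrimidines was present for 13 of the 64 (20.3%), against 813 of all 27025 genes with a start (3.01%). The share depends on the annotated base, since a start placed a few bases away hides the run. The 30-base windows of Rps6, the S6 kinase substrate, of Rplp2, of the stalk that recruits elongation factors, and of Rps27, Rpl38 and Rps10, whose values are described below, are shown because they carry the run. Each window has 10 bases before the start, and capitals mark the pyrimidine run, which begins at the start itself. They lie at chr4:86857348-86857377 (minus strand), chr7:141447641-141447670 (plus), chr3:90213629-90213658 (minus), chr11:114668570-114668599 (plus) and chr17:27635225-27635254 (minus).
Rps6: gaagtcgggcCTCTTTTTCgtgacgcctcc
Rplp2: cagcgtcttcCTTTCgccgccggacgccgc
Rps27: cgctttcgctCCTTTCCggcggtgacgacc
Rpl38: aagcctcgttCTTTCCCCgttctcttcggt
Rps10: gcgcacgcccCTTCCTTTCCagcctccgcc

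Ribosomal protein promoters are known for sites of ETS factors, and the ETS family includes nuclear targets of MAPK signalling. The letters CCGGAAG, or CTTCCGG on the other strand, were found between 250 bases before and 50 after the start in 26 of the 64 genes (40.6%) and in 9.93% of all genes. Of other short motifs read on both strands, CACGTG (the E-box of MYC) was in 6 of 64 (9.38%, all genes 8.09%), AAGATGG (the YY1 core) in 10 of 64 (15.6%, all genes 7.28%) and TATAAA in 7 of 64 (10.9%, all genes 15.7%). A match describes these letters and is not a site. The 4 windows below, from the ETS search, belong to the 3 genes with an unadjusted p under 0.05 in the fit with the replicate block (below) and to Rps27l, and capitals mark the match, which begins at -2, 23, -73 and 9 bases from the start. They lie at chr3:130730321-130730350 (minus strand), chrX:37085181-37085210 (minus), chr9:44407630-44407659 (plus) and chr9:66946084-66946113 (plus). Rps10 and Rpl38 also had a match, at -29 and -20 bases. The match is present beside genes with higher and with lower values in AdCre.
Rpl34: ttccttttcctCTTCCGGggacggtgctca
Rpl39: ctaatcgcgttCTTCCGGtcccggcctttc
Rps25: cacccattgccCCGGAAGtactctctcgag
Rps27l: ccgcctctatcCCGGAAGttgctgaggggc

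Ribosomal protein transcripts were among the most abundant of these cells. Of the 84 genes, 59 had a mean of at least 100 FPKM over the 6 samples, 18 lay between 10 and 100 FPKM and 7 were under 10 FPKM. Their median was 154 FPKM over the 81 that reached a mean of 0.5 FPKM, against 5.66 FPKM over the 13794 genes of any kind that did, and 63 were among the 500 most abundant genes. The 77 genes of at least 10 FPKM had 851 to 50384 reads per sample, so counting error was small beside the spread between replicates. Rplp1, a stalk protein, was the most abundant by FPKM, at 1600, 1010 and 1050 FPKM in AdGFP and 1530, 1030 and 1250 FPKM in AdCre. Rplp0, which anchors the stalk to the large subunit, was at 807, 698 and 795 FPKM in AdGFP and 948, 699 and 840 FPKM in AdCre. Rps2, next to the entry channel for messenger RNA, was at 853, 605 and 611 FPKM in AdGFP and 806, 635 and 672 FPKM in AdCre. In each of these genes the groups overlapped, and samples numbered 1 were high in both. Rplp2, the partner of Rplp1 in the stalk, was listed lower, at 120 ± 32.9 and 118 ± 24.6 FPKM (SD, n = 3 each). Order and gaps depend on the length used, and with the principal transcript in place of all exon bases the means were 1278 for Rps2, 1243 for Rplp1 and 585 for Rplp2.

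The levels of the 77 genes spanned 69.5-fold, with an SD of 1.13 on the log2 scale. The range depended on the length by which reads were divided. FPKM divides by all annotated exon bases of a gene, also those outside its principal transcript. With the length of the principal transcript in its place, the span was 35.4-fold and the SD 0.86, and the SD of the read counts, with no length in them, was 0.92.

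No ribosomal protein gene passed the test between AdCre and AdGFP. Values were compared as log2(FPKM + 0.1) in limma over the 13794 genes of at least 0.5 FPKM on average, with Benjamini-Hochberg adjustment over all of them, and a gene passed at an adjusted p under 0.05. Of the 81 ribosomal protein genes tested (49 large, 32 small), 0 passed and 0 had an unadjusted p under 0.05, with a smallest adjusted p of 0.617. Of all genes, 0.00725% passed this test and 10.2% had an unadjusted p under 0.05. Same-numbered AdGFP and AdCre samples deviated together across genes, and with the replicate number as a block 0 of 81 passed, with a smallest adjusted p of 0.102 for Rpl34, where 6.15% of all genes passed. Unadjusted p-values under 0.05 were then found for 3 of the 81, Rpl34, Rpl39 and Rps25, against 24.7% of all genes. Among the 4688 genes of at least 10 FPKM, 383 (8.17%) passed with the block, and none of these was a ribosomal protein gene. Limma's voom on the recovered reads also called 0 of 81, without and with the block, with 0 and 4 unadjusted p-values under 0.05.

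The differences were small in size. The median log2 fold change was 0.03 (interquartile range -0.02 to 0.09), and it was below 0.01 in size over all genes (interquartile range -0.18 to 0.16). The values ran from -0.28 for Rps29 to 0.45 for Rps10. Of the 81 genes, 55 were higher and 26 lower in AdCre, with medians of 0.02 for the large subunit (30 of 49 higher) and 0.06 for the small (25 of 32 higher). This balance of signs depended on the scaling and on single libraries. After rescaling to TPM 74 of 81 were higher, with a median of 0.12 where that of all genes was 0.09. Without AdCre replicate 1 the median was -0.07 and 17 of 81 were higher. Without AdGFP replicate 2 it was -0.04 with 24 higher, and without AdCre replicate 2 it was 0.16 with 77 higher. These fits leave the same-numbered partner of the omitted sample unmatched. With both samples of a number left out of the blocked fit, the medians were 0.02, 0.08 and 0.02 for pairs 1, 2 and 3. Then 45, 67 and 47 of the 81 were higher. A log2 fold change under 0.2 in size was found for 76 of the 81, against 55.9% of all genes, and among genes of at least 10 FPKM for 73 of 77 against 65.6%. None of the 81 exceeded 0.5 in size, which 14.6% of all genes did.

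The data bound most of these differences. The 95% interval of the fold change lay within 2-fold in either direction for 79 of the 81 genes without the block and for 80 with it. The exceptions were Rps10 in both and Rpl3l without the block. The narrower bound of 1.5-fold (0.585 on the log2 scale) held for 65 and 76 genes. With the block the exceptions at 1.5-fold were Rps10, Rpl3l and Rpl36al, which had few reads, and Rpl38 and Rps29, which with Rps28 varied most between replicates among the genes of at least 10 FPKM. The standard error had a median of 0.18 without and 0.08 with the block, against 0.19 and 0.12 over all genes.

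**Figure D1:**
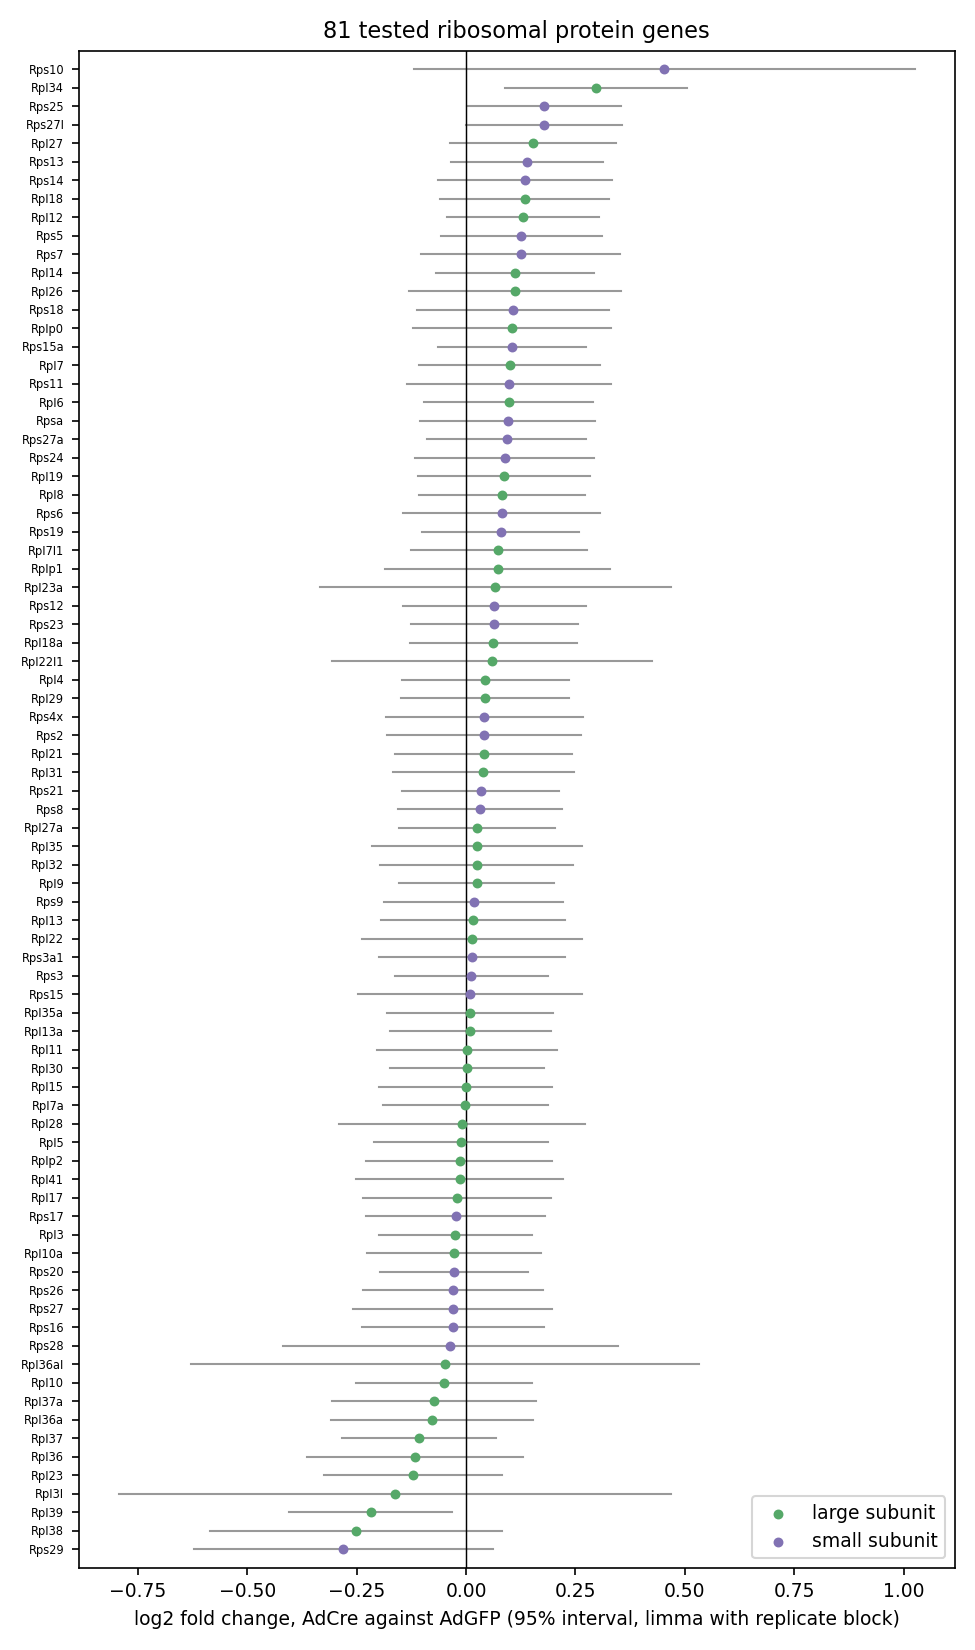
Log2 fold change (AdCre against AdGFP, horizontal axis) of the 81 tested ribosomal protein genes, green for the large and purple for the small subunit, with 95% intervals from the fit with the replicate block (n = 3 pairs). Most points lie within 0.2 of the line at 0, and the interval excludes 0 for Rpl34, Rps25 and Rpl39 before adjustment over all genes.

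Rpl39 (GRCm38, chrX:37082520-37085402), a very small protein that lines the exit tunnel for the growing chain, was the single gene whose groups did not overlap, where 15.4% of all tested genes were without overlap. It was at 95.3, 90.5 and 90.9 FPKM in AdGFP and 87.2, 72.7 and 78.5 FPKM in AdCre. All AdCre samples were below all AdGFP samples. The log2 fold change was -0.22 ± 0.12 (SE), with an adjusted p of 0.617 in limma and 0.15 with the block. Its sign was the same in all 33 fits made, from -0.29 to -0.13.

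Rpl34 (chr3:130726831-130730398), a large subunit protein, was at 51.7, 44.4 and 58.6 FPKM in AdGFP and 71.4, 50.3 and 69.6 FPKM in AdCre. AdCre 1 and 3 were above every AdGFP sample, and AdCre 2 was not. The log2 fold change was 0.30 ± 0.18 (SE), with an adjusted p of 0.658 in limma, and with the block the SE was 0.09 and the adjusted p 0.102. Over the 33 fits it stayed above 0, between 0.19 and 0.46, and its smallest adjusted p was 0.0589.

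Rps25 (chr9:44407139-44410427), a small subunit protein known for its part in internal initiation of translation, was at 124, 96.5 and 110 FPKM in AdGFP and 147, 107 and 122 FPKM in AdCre. The groups overlapped, although AdCre was higher in each same-numbered pair, by 0.24, 0.15 and 0.15 on the log2 scale. The log2 fold change was 0.18, from 0.06 without AdCre replicate 1 to 0.29 without AdCre replicate 2, and the adjusted p in limma was 0.804 and with the block 0.196. More than 20% of the exon bases of Rps25 lie opposite exons of a gene on the other strand, and the use of strand in counting is not given in the sources used here.

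Rps29 and Rpl38, a zinc-finger protein of the small subunit and a small protein of the large one, had the lowest fold changes and, with Rps28, the largest spread within groups among the genes of at least 10 FPKM. Rps29 was at 181, 118 and 97.4 FPKM in AdGFP and 138, 79.5 and 106 FPKM in AdCre. Rpl38 was at 331, 215 and 186 FPKM in AdGFP and 274, 144 and 199 FPKM in AdCre. Rps28 was at 74.9, 55.8 and 41.6 FPKM in AdGFP and 73.3, 40.8 and 54.0 FPKM in AdCre. In these genes AdGFP 1 stood above the other 2 controls by more than the groups differed, and the log2 fold changes of -0.28 ± 0.29, -0.25 ± 0.30 and -0.04 ± 0.28 (SE) did not pass. Without AdGFP replicate 1 they were -0.03, -0.01 and 0.18.

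Same-numbered samples gave the same sign in all 3 pairs for 26 of the 81 genes, 22 higher and 4 lower in AdCre, against 48.4% of all genes. The 4 lower were Rpl39, Rpl37, Rpl23 and Rpl3, of which Rpl37 (-0.11) and Rpl23 (-0.12) were singled out after their values were seen. Pair by pair, 56, 34 and 58 of the 77 genes of at least 10 FPKM were higher in AdCre, with median differences of 0.08, -0.03 and 0.08. The SD of these differences over the 77 genes was 0.132, 0.158 and 0.134 in pairs 1, 2 and 3, against 0.393, 0.28 and 0.348 over all genes of at least 10 FPKM. The ribosomal protein genes thus differed less from each other than all genes of at least 10 FPKM did in each pair. The 2 sets were not matched for level, and no test was made of this over genes.

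These genes moved together between replicates. On the log2 scale, relative to each gene's mean, the median of the 77 genes was 0.16, -0.18 and -0.05 in AdGFP 1, 2 and 3 and 0.24, -0.22 and 0.03 in AdCre 1, 2 and 3. AdCre 2 was the lowest AdCre sample for 77 of the 77 genes and AdCre 1 the highest for 75. AdGFP 2 was the lowest AdGFP sample for 63 and AdGFP 1 the highest for 56. The sum over the 84 genes was 5.71, 5.06 and 6.0% of all FPKM in AdGFP and 6.6, 5.22 and 6.48% in AdCre, and 2.94, 2.46 and 2.77% and 3.31, 2.49 and 3.02% of the reads. These shares overlapped between groups, and within each same-numbered pair the AdCre share was the higher one. The sum itself was 19400, 15100 and 16700 FPKM in AdGFP and 20200, 14800 and 17500 FPKM in AdCre, so it was lower in AdCre in pair 2. The ratio of large to small subunit FPKM ran from 1.45 to 1.55 in AdGFP and from 1.46 to 1.51 in AdCre.

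**Figure D2:**
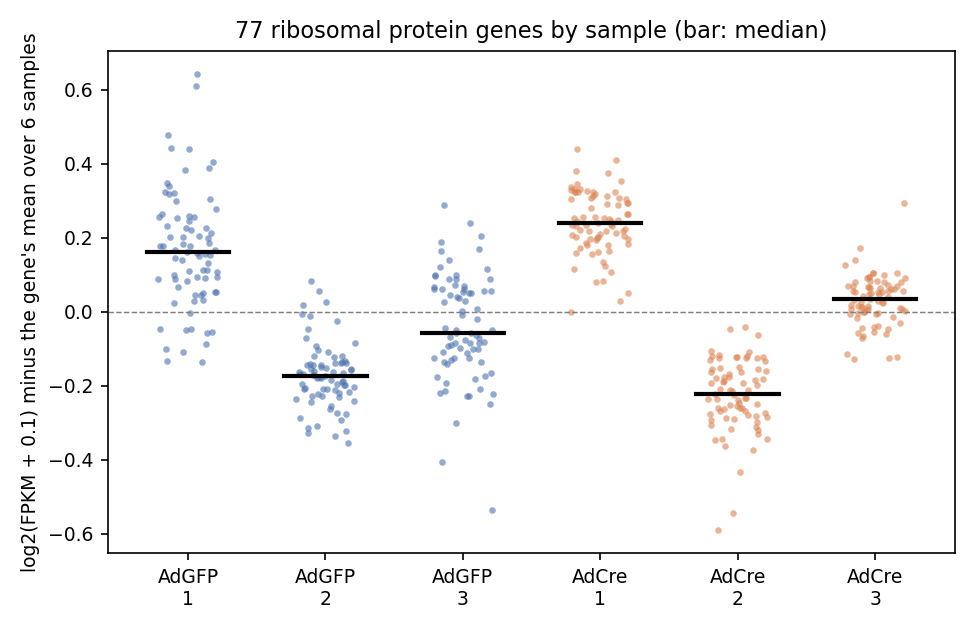
Level of the 77 ribosomal protein genes of at least 10 FPKM in each sample (points, log2 of FPKM + 0.1 minus the gene's mean over the 6 samples), blue for AdGFP and orange for AdCre, with a bar at the median. The genes move together from sample to sample, high in both samples numbered 1 and low in both numbered 2.

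The excess of the samples numbered 1 over the other 2 of their group had a median of 0.29 in AdGFP (range -0.17 to 0.75 over the 77 genes) and 0.33 in AdCre (0.01 to 0.69), against 0.01 and 0.02 over all genes. Genes with a large excess in one group had a large one in the other, with Pearson's r of 0.841 across the 77 genes, which share libraries and are not independent. It was larger for the 17 genes whose principal transcript is under 500 bases (0.34 in AdGFP and 0.38 in AdCre) than for the 18 of at least 1000 bases (0.19 and 0.25). The labels do not say what a replicate number marks. The part of RNA quality, fragment length or culture in this was not tested.

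None of the genes with roles outside the ribosome passed. Rps6 was at 238, 214 and 272 FPKM in AdGFP and 286, 220 and 261 FPKM in AdCre, with overlap. Rpl5 was at 104 ± 13.0 and 103 ± 7.11 FPKM, and Rpl11 at 86.2 ± 19.4 and 86.2 ± 18 FPKM (SD, n = 3 each, AdGFP then AdCre). Their log2 fold changes in limma were 0.08 for Rps6, -0.01 for Rpl5 and below 0.01 for Rpl11, with adjusted p-values of at least 0.932, and with the block the 95% intervals ran from -0.15 to 0.31, -0.21 to 0.19 and -0.20 to 0.21. Rpsa, which is also a laminin receptor and laminin is what these cells were plated on, was at 416, 300 and 382 FPKM in AdGFP and 431, 344 and 393 FPKM in AdCre. Its log2 fold change was 0.10 (adjusted p 0.926 in limma, 0.521 with the block), and -0.04 without AdGFP replicate 2.

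Diamond-Blackfan anemia is a disorder of red cell formation caused by loss of 1 copy of a ribosomal protein gene. Of 9 genes known for it, 6 were higher and 3 lower in AdCre with a median log2 fold change of 0.01, and 0 passed in either limma fit (0 unadjusted p-values under 0.05 in both, against 10.2 and 24.7% of all genes), which with 9 genes says little. Rps19, the gene most often affected, was at 63.2, 48.5 and 52.4 FPKM in AdGFP and 66.4, 48.7 and 58.6 FPKM in AdCre. Rps14, lost in a myelodysplastic syndrome, was at 282 ± 24.4 and 309 ± 21.5 FPKM (SD, n = 3 each), with a log2 fold change of 0.13 and an adjusted p of 0.832 in limma.

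Several ribosomal proteins have a second gene, or copy, that can stand in for them. Rpl3l replaces Rpl3 in the ribosomes of adult heart and skeletal muscle. Here Rpl3l was at 0.788, 1.1 and 0.667 FPKM in AdGFP and 0.722, 1.27 and 0.417 FPKM in AdCre, on 19 to 54 reads per sample. Rpl3 was at 201, 176 and 196 FPKM and 200, 174 and 189 FPKM. The copy was thus at 0.221 to 0.733% of Rpl3, and the samples numbered 2 had the most Rpl3l in both groups. The transcripts of Rpl3l share none of their 50-base stretches with a transcript of another gene.

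Rps27l, known as a p53 target, was the copy closest in FPKM to its partner, at 166, 118 and 137 FPKM in AdGFP and 183, 131 and 163 FPKM in AdCre. Rps27 was at 221 ± 43.5 and 216 ± 33.6 FPKM (SD, n = 3 each). The copy came to 74.6, 66.7 and 51.9% of Rps27 in AdGFP and 75.7, 73.4 and 71.7% in AdCre. The share was higher in AdCre in each same-numbered pair. The difference in log2 ratio was 0.21, with an exact two-sided permutation p of 0.3, where 0.1 is the smallest p that 3 samples against 3 allow. Rps27l alone was higher in AdCre in each pair, with a log2 fold change of 0.18 and an adjusted p of 0.832 in limma and 0.205 with the block. The fold change was 0.06 without AdGFP replicate 2 and 0.31 without AdCre replicate 2.

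Rpl22l1, the copy of Rpl22, was at 9.95, 7.02 and 6.16 FPKM in AdGFP and 8.19, 7.03 and 8.46 FPKM in AdCre, which was 11.2 to 20.5% of Rpl22. Rpl7l1 was at 10.3 to 13.7% of Rpl7. Rpl36al was at 0.646 to 1.29% of Rpl36a on 18 to 44 reads, and Rpl39l, best known from testis, at 0.129 to 1.16% of Rpl39 on 3 to 21 reads. These shares depend on the length used. Over the 6 samples, the mean of the copy came to 68.5% of the partner in FPKM and 37% per principal transcript length for Rps27l, 15.1 and 8.86% for Rpl22l1, 0.438 and 0.223% for Rpl3l, 0.357 and 0.23% for Rpl39l, 0.925 and 0.694% for Rpl36al, and 11.9 and 13.7% for Rpl7l1. Rpl10l, the testis copy of Rpl10, had 0 reads in all 6 samples. For the 6 ratios with reads in every sample, the smallest exact two-sided permutation p was 0.3 (adjusted over the 6 ratios, 1.0 for each), in a design in which no ratio could go below 0.1. Rps4x, whose copy Rps4l is a pseudogene in this annotation, was at 316 ± 41.3 and 325 ± 25 FPKM (SD, n = 3 each).

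**Figure D3:**
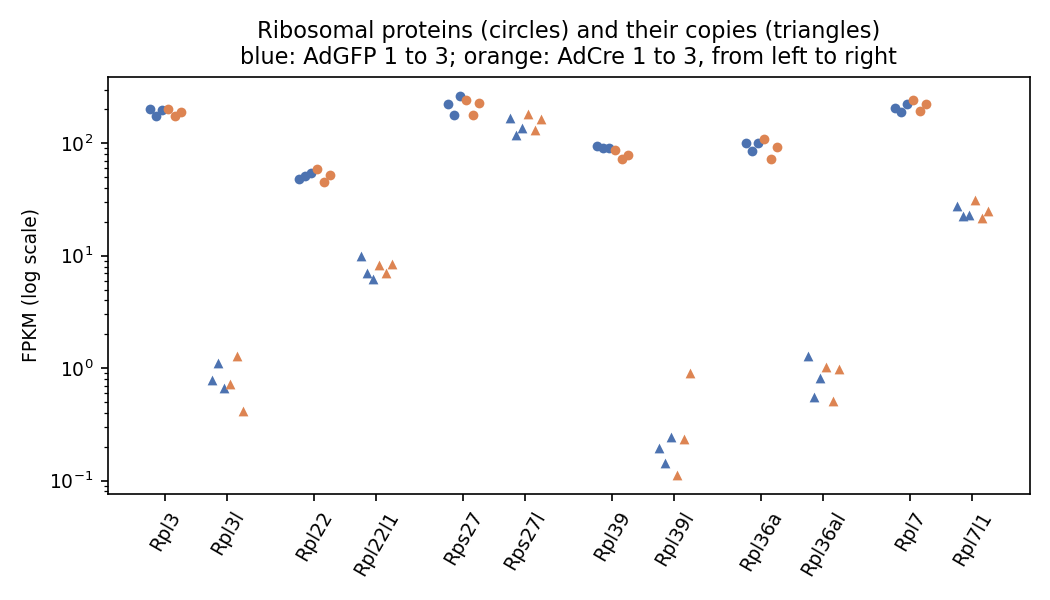
FPKM (vertical axis, log scale) of 6 ribosomal proteins (circles) and their copies (triangles) in AdGFP 1 to 3 (blue) and AdCre 1 to 3 (orange), from left to right. Rps27l is close to Rps27, Rpl22l1 is at 11.2 to 20.5% and Rpl7l1 at 10.3 to 13.7% of the partner, and Rpl3l, Rpl39l and Rpl36al are near or under 1 FPKM in both groups.

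Some low values coincided with overlaps in the annotation. Reads that fit exons of more than 1 gene on the same strand are often left uncounted, and 4 genes had over 50% of their principal transcript in exons of another gene on the same strand, chosen after their values were seen. These were Rps10 (91.6%, with RPS10-NUDT3), Rpl24 (71.5%, with Gm28037), Rpl36al (63.1%, with Gm49383) and Rpl13a (59.3%, with Gm45713), while the other 80 genes had at most 10.7%. Rps10 was at 0.764 ± 0.0529 and 1.11 ± 0.316 FPKM, Rpl24 at 0.417 ± 0.218 and 0.306 ± 0.0524 FPKM and Rpl13a at 17.8 ± 2.33 and 18 ± 2.82 FPKM (SD, n = 3 each, AdGFP then AdCre). The overlapping genes were listed at 0 FPKM in every sample, apart from 3 reads of Gm49383 in AdCre 1. Where shared reads are left uncounted, the values of these 4 genes cover only the stretches that no other gene shares, and how they were counted is not given in the sources used here. They include Rps10, with the highest fold change (0.45 ± 0.28 SE, adjusted p 0.658 in limma and 0.296 with the block), which rests on 41 to 105 reads per sample. Its fold change was 0.25 with a pseudocount of 1, below that of Rpl34 (0.29), and 0.27 without AdCre replicate 1.

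**Figure D4:**
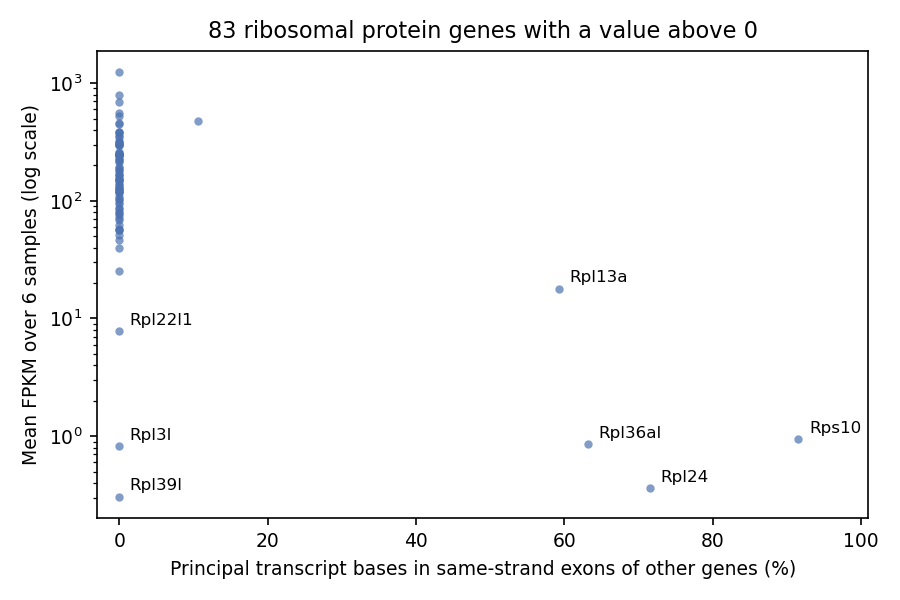
Mean FPKM over 6 samples (vertical axis, log scale) of the 83 ribosomal protein genes with a value above 0, against the share of the principal transcript's bases that lie in same-strand exons of other genes (horizontal axis, %). The 4 genes over 50% are among the lowest, and Rpl22l1, Rpl3l and Rpl39l are low without such overlap.

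Sequence shared with other genes limits these values as well. Of the 84 genes, 77 shared at least 5% of their 50-base stretches with transcripts of other genes, with a median of 23.1%. Pseudogene transcripts held a median of 16.1%, and at most 81.1%, in Rpl36. The highest share with genes of any kind, 84.0%, was that of Rpl35, for which pseudogenes held 21.8% and 66.2% of the exon bases lie opposite another gene. Reads from such stretches may have been dropped or split, and levels of single genes are uncertain to that extent. Over the 6 tested genes with under 5% the median log2 fold change was 0.05.

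Rack1 and Fau, ribosomal proteins outside the symbol rule, did not pass, and neither had an unadjusted p under 0.05 in either limma fit. Rack1, a scaffold on the small subunit, was at 139 ± 16.5 and 143 ± 15.1 FPKM, and Fau, a fusion of a ubiquitin-like protein with Rps30, at 401 ± 46.5 and 365 ± 45.0 FPKM (SD, n = 3 each, AdGFP then AdCre). The smallest adjusted p in limma was that of Fau with the block, 0.333.

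Genes that work with the ribosome were read from lists in the same fits. Of 21 translation factors and other TOP transcripts, 11 were higher and 10 lower with a median log2 fold change of 0.03, and 0 passed in limma in either fit (0 unadjusted p-values under 0.05 without the block and 1 with it, against 10.2 and 24.7% of all genes). The gene with the smallest p in the blocked fit was Nap1l1, a histone chaperone, at 53.4 ± 4.86 and 63.6 ± 6.46 FPKM (adjusted p 0.6, with the block 0.092). Eef1a1, the elongation factor that delivers tRNA, was at 2610 ± 203 and 2440 ± 162 FPKM. Eef1a2, the form that replaces it in mature muscle, was at 219, 208 and 129 FPKM in AdGFP and 184, 142 and 103 FPKM in AdCre, with a log2 fold change of -0.38 (adjusted p 0.733 in limma, 0.0668 with the block).

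Of 42 ribosome biogenesis genes, 34 were higher and 8 lower in AdCre with a median log2 fold change of 0.13, where 49.6% of all genes were higher. Whether this balance depends on single libraries was not tested. In limma 0 passed in either fit, with 0 unadjusted p-values under 0.05 without the block and 6, all higher, with it (24.7% of all genes). The smallest p in the blocked fit was that of Nhp2, a protein of the RNA particles that modify ribosomal RNA, at 44.2, 23.1 and 23.0 FPKM in AdGFP and 49.9, 29.6 and 34.3 FPKM in AdCre (adjusted p 0.772, with the block 0.0849). In Nhp2 the samples numbered 1 were the highest of their group.

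Of 78 mitochondrial ribosomal protein genes, which build a separate ribosome, 77 were tested, 36 were higher and 41 lower, and the median was -0.01. Mrps6 alone passed with the block (adjusted p 0.0497), at 4.54, 5.58 and 6.72 FPKM in AdGFP and 12.1, 7.93 and 11.1 FPKM in AdCre, and it did not pass without it (0.281) or in the blocked fit without an intensity trend. This was 1 of 77 genes, where 6.15% of all genes passed. Of 19 genes that regulate TOP transcripts and ribosome production, among them mTOR subunits, S6 and RSK kinases, Larp1 and Myc, 11 were higher and 8 lower with a median of 0.04. Rps6ka2, which codes for the MAPK-activated kinase RSK3, rose with the block (adjusted p 0.0306), from 4.33 ± 0.441 to 6.55 ± 0.644 FPKM (SD, n = 3 each), and its adjusted p without the block was 0.261. This was 1 of 19 genes, where 6.15% of all genes passed, and in the blocked fit without a trend no gene of any kind passed. Larp1 was at 28.4 ± 4.02 and 29 ± 1.64 FPKM and Myc at 11.9 ± 1.37 and 11.6 ± 0.832 FPKM, named from the list for their known roles.

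**Figure D5:**
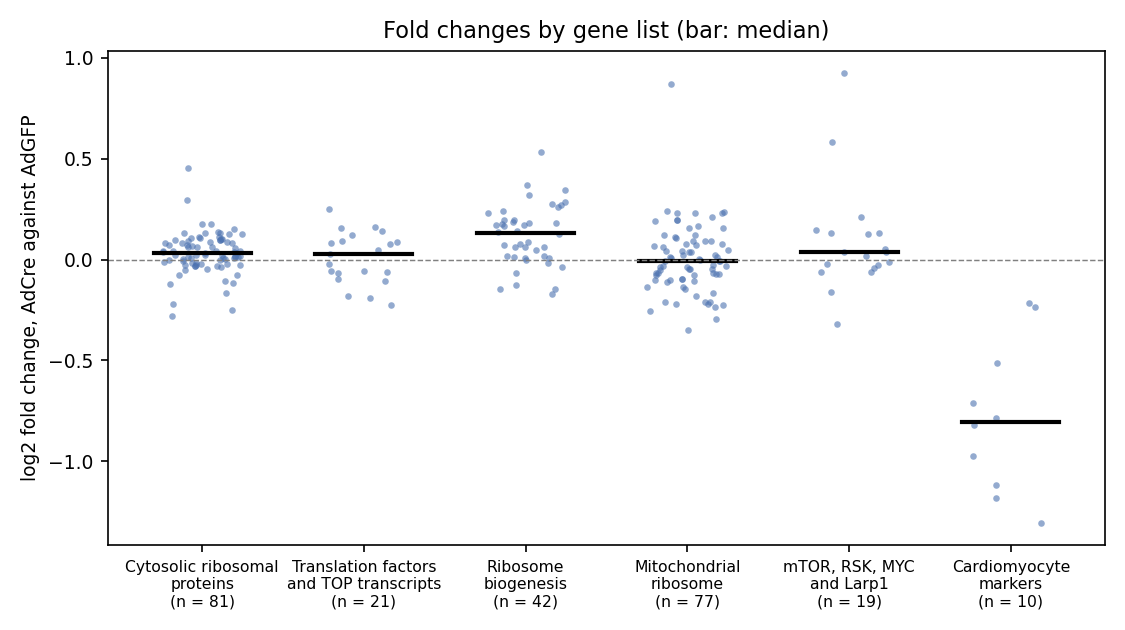
Log2 fold change (AdCre against AdGFP, vertical axis) of the tested genes of 6 lists (points, n under each) with a bar at the median. The ribosomal protein genes lie between -0.28 and 0.45, while the 10 cardiomyocyte markers in the same libraries are all below 0, with a median of -0.80.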

How the data were processed

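The deposited table gives FPKM values made by the authors, with 1 column per sample and no pooling. Per the labels, poly-T beads selected messenger RNA from total RNA, and cDNA was primed with random hexamers. The submitters' processing notes name fastp, STAR 2.5, HTSeq 0.6.1 and the build mm10. The use of strand is not given in the sources used here. Of 54532 rows, 54495 were matched to GENCODE M21. FPKM times exon length gave whole reads (within 0.02) for 98.3% of 28433 rows above 0. Only values of low read counts were checked in this way, and higher ones counted as whole. The values of the 77 ribosomal protein genes of at least 10 FPKM were all among the unchecked ones. Intervals rest on the spread between samples.

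The test was limma 3.58.1 (R 4.3.3, lmFit and eBayes with an intensity trend) on log2(FPKM + 0.1), which understates fold changes of low genes. It was run on 13794 genes averaging 0.5 FPKM or more. Of the 84 members, 81 entered, and Rpl24, Rpl39l and Rpl10l did not. Replicate libraries differed by more than counting error. Deviations from the group means correlated at 0.568, 0.268 and 0.506 between same-numbered samples and at -0.497 to 0.036 between others, so same-numbered samples were treated as pairs, from these values alone, and blocked values are given beside the others.

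Members and lists were chosen with earlier results of these data known. Named genes were taken by role (the stalk, Rpsa, genes with roles outside the ribosome, copies and their partners), by the highest mean level (3), by the smallest p in each direction where none passed (3), by the largest spread among genes of at least 10 FPKM (3), and from other lists by the smallest blocked p. Alternatives changed the pseudocount, the filter, the scaling, the model, the members and the samples.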

Additional observations from a re-analysis of the deposited data

How the results depend on the processing

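No ribosomal protein gene passed in any of the 33 fits, in which the smallest adjusted p was 0.0589 (Rpl34, voom with the replicate block) and at most 11 of 81 had an unadjusted p under 0.05 (values rescaled to TPM, replicate block). The count over all genes moved. Without the block 1 gene passed, and it was 3 with a pseudocount of 1, 4 with eBayes without a trend, 0 with no filter, 0 with voom and 0 to 2 when each sample was left out. With the replicate block 848 passed, 17 with no filter, 0 without a trend, 1540 with voom (an alternative chosen after seeing the data) and between 1 (without pair 3) and 772 when each pair was left out (149 without pair 2). The pairing changed no call of a ribosomal protein gene. Of the 848, 364 were higher in AdCre, against 534 of 875 after rescaling to TPM and 479 of 874 without the authors' scaling factors. The median log2 fold change of the ribosomal protein genes was 0.03, with 0.12 after rescaling to TPM, 0.11 after quantile normalization and 0.09 without the authors' scaling factors, where 74, 72 and 72 of 81 were higher and the median of all genes was 0.09, 0.01 and 0.06. It ran from -0.07 to 0.16 when each sample was left out, and from 0.02 to 0.08 when each same-numbered pair was left out of the blocked fit. The SD of the sample medians was 0.205, which is a spread of single samples and not the error of a difference between groups. The core genes gave 0.03, and a strict reading of the symbol rule gave 0.03. With 3 samples a group and no block, the 95% interval lay within 1.5-fold for 65 of 81 genes, and for the others it reached past a change of that size.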
